A study of Mus musculus with 6 samples.

Results

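The lineage transcription factors of T cells were examined in regulatory T (Treg) cells cultured with or without sorafenib (Sora), a multikinase inhibitor used in liver cancer. The 9 factors were Tbx21, Gata3, Rora, Bcl6, Eomes, Runx3, Tox, Tox2 and Zbtb7b. They were chosen by symbol as factors of the helper, follicular and cytotoxic lineages, and all 9 were found among the 22939 genes of the count and FPKM tables. All 9 also passed the filter on low counts, which left 13463 genes for testing.

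RNA-seq counts came from 3 libraries of control Treg (ctrl-Treg) cells and 3 libraries of Sora-Treg cells. In both groups, naive CD4 T cells of C57BL/6J mice carrying a Foxp3-GFP knock-in allele were activated through CD3 and CD28 and polarized with TGF-β1 in the presence of antibodies against IFN-γ and IL4, and the GFP-positive cells were sorted. Antibodies against the main Th1 and Th2 cytokines were thus present in every culture. The age of the mice, the number of animals behind a library and the Sora concentration of the sequenced cultures were not stated for these libraries. Nothing says that replicates came from separate cultures or animals, so p-values measure only the spread between these libraries, which may be technical.

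Total counts per library ranged from 30727686 to 37717324, and a floor of 3 counts corresponded to at most 0.0976 CPM, the count scaled to a common library total, which covers counting error only. The T cell and Treg cell markers Cd3e, Cd4 and Foxp3 were abundant in every library, and Foxp3 had between 8058 and 10584 counts. Markers of other cell types were summed per library. Natural killer cell markers (4 genes) summed to 0.0570 to 0.0976 CPM in the control group and 0.0317 to 0.271 CPM under Sora, and erythroid markers (3 genes) to at most 0.130 CPM. Klrd1, a killer lectin receptor gene outside those 4 and named after its value was seen, averaged 1.16 CPM against 3.55 CPM (TMM-scaled). Myeloid markers (6 genes) summed to 25.5 to 96.2 CPM in the control group, with control replicates 1 and 2 highest, and to 19.7 to 40.2 CPM under Sora. B cell markers (5 genes) summed to 10.1 to 11.1 CPM against 5.84 to 7.39 CPM, innate lymphoid cell markers (4 genes) to 139 to 143 CPM against 314 to 327 CPM, and T cell markers (6 genes) to 1634 to 1648 CPM against 2072 to 2121 CPM. The 5 Treg cell markers summed to 3112 to 3145 CPM against 5517 to 5642 CPM. In TMM-scaled group means, Il2ra went from 1934 to 3795 CPM, Ctla4 from 383 to 1108 and Tnfrsf18 from 282 to 494. Foxp3 (259 and 272 CPM) and Ikzf2 (147 and 149 CPM) each overlapped between the groups. Foxp3 still passed the test as slightly higher (log2 fold change 0.07, edgeR adjusted p = 0.0405), and Ikzf2 did not pass (0.02, edgeR adjusted p = 0.654). In bulk RNA, fewer cells of a type and less RNA per cell cannot be told apart.

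A small set of DNA-binding proteins sets the fate of a T cell. Tbx21 (T-bet) drives the Th1 program, Gata3 the Th2 program, Rora supports the Th17 program, and Bcl6 drives follicular helper cells. Zbtb7b (ThPOK) commits thymocytes to the CD4 lineage and Runx3 commits them to the CD8 lineage, and each restrains the other. Eomes and Runx3 support cytotoxic genes, and Tox and Tox2 are HMG-box factors known from T cell development, chronic stimulation and follicular helper cells. Treg cells can express several of these factors without leaving the Treg lineage.

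Because Runx3 and Zbtb7b form an antagonistic pair and Runx3 was the factor that rose most, their promoters are shown. RefSeq promoter sequences on GRCm38.p6, from 250 bases before to 50 bases after a transcription start, were found for 8 of the 9 factors, with 15 start sites. They were searched on both strands for 6 motifs: TGTGGT for RUNX factors, AGATAA for GATA factors, GGTGTGA for T-box factors, AGGTCA for ROR factors, TTCCTAGAA for BCL6 and GTAAACA for FOXO factors. None of these motifs overlapped another in the matches found. The 4 sequences below run 5′ to 3′ on the gene's strand, and capitals mark the RUNX letters or their reverse complement ACCACA. The first Runx3 promoter is the upstream one, at chr4:135120395-135120694 on the plus strand. The next is the downstream Runx3 promoter at chr4:135152295-135152594, also on the plus strand. The last 2 are the upstream Zbtb7b promoter at chr3:89393329-89393628 and the downstream one at chr3:89387622-89387921, both on the minus strand.
Runx3 upstream: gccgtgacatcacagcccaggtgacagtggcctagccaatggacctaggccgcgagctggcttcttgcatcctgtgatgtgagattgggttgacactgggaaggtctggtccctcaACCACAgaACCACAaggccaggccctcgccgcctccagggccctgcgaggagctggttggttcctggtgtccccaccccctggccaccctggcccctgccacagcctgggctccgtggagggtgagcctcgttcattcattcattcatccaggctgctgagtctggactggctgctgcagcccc
Runx3 downstream: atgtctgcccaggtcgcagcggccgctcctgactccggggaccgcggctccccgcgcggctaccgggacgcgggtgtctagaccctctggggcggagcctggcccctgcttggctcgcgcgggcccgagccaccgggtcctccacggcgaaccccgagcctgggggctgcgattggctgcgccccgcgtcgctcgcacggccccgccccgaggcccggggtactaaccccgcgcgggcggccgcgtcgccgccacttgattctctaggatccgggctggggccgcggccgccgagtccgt
Zbtb7b upstream: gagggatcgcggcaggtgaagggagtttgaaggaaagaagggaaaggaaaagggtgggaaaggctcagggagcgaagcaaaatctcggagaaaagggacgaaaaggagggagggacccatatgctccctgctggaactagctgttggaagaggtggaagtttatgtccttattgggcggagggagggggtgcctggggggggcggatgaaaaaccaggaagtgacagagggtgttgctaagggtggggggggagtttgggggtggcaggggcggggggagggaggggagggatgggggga
Zbtb7b downstream: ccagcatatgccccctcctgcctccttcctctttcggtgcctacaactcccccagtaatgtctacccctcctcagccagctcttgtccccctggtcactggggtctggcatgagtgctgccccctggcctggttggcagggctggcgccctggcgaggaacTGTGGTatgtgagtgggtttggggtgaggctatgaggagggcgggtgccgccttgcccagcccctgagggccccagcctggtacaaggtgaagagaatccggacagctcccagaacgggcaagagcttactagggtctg
The upstream Runx3 promoter held 2 RUNX matches, with first bases at -134 and -126 from the start. The downstream Runx3 promoter and the upstream Zbtb7b promoter held none of the 6 motifs. The downstream Zbtb7b promoter held a single RUNX match, at -89 from the start. RUNX letters were present in 2 of 15 start sites of the 8 factors with a promoter (13.3%), against 16.8% of all 32851 promoters in the table. Of all promoters, 1.81% held 2 or more. The other 5 motifs had no match in these windows, and their shares over all promoters were 11.2% (GATA), 3.98% (T-box), 16.3% (ROR), 0.411% (BCL6) and 3.65% (FOXO). The letters are a description of the windows and not evidence of binding.

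Of the 9 factors, 4 were significantly higher in Sora-Treg cells (Runx3, Eomes, Rora and Zbtb7b), 2 were significantly lower (Tox and Tox2), and 3 did not pass the test (Tbx21, Bcl6 and Gata3). Calls came from edgeR's quasi-likelihood test across all tested genes, with Benjamini-Hochberg adjustment at 0.05. The 6 calls are 66.7% of the factors, where 59.6% of all tested genes were called, so the share of calls was near that of genes in general. By direction, 29.7% of all tested genes were called higher and 29.9% lower. Counting only changes of more than 2-fold, the limit in the study's methods, Runx3 and Eomes were differentially expressed genes (DEGs), which is 22.2% of the factors against 11.3% of tested genes (6.3% higher and 4.97% lower). Scaling by library totals alone shifts the balance over all tested genes from 3994 higher and 4028 lower to 2862 higher and 5614 lower. Values did not overlap between the groups for 8 of the 9 factors, against 63.7% of tested genes. The median log2 fold change was -0.04 over the 9 factors and -0.00352 over all tested genes.

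**Figure D1:**
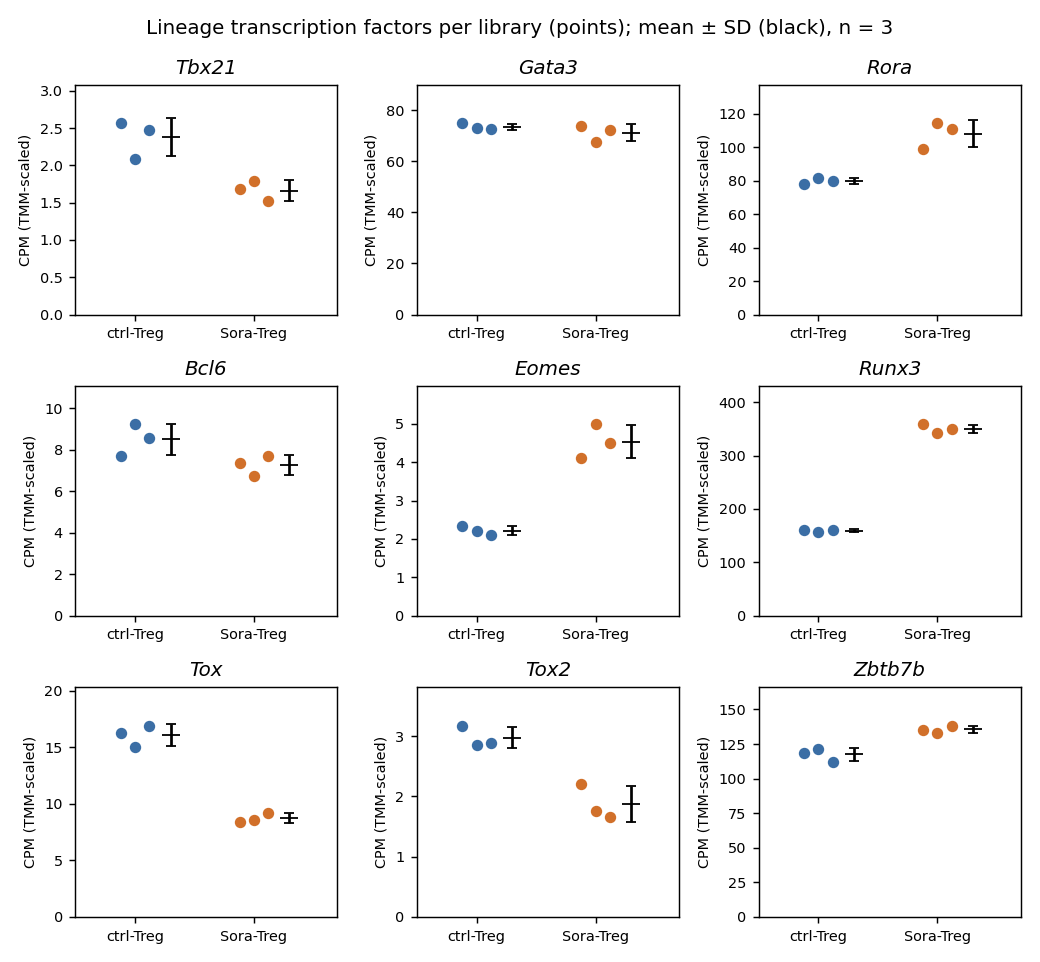
TMM-scaled CPM (y axes, from 0) of the 9 factors in the 3 ctrl-Treg (blue) and 3 Sora-Treg (orange) libraries, 1 point per library, with the group mean ± SD in black. Runx3 separates most clearly, at 156 to 161 CPM against 343 to 358 CPM, and Gata3 is the factor whose groups overlap.

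Runx3 (chromosome 4), which represses Cd4 and supports cytotoxic genes in the CD8 lineage, stood at 161, 156 and 160 CPM without Sora and at 358, 343 and 349 CPM with it. Every Sora-Treg library was more than 2-fold above every ctrl-Treg library. Means were 159 ± 2.79 and 350 ± 7.85 CPM (SD, n = 3), and on the log2 scale Runx3 rose by 1.14 ± 0.03 (SE, adjusted p = 4.23e-19 by edgeR). Among tested genes, 94.6% had a lower log2 fold change. Its spread was 1.75% and 2.24% of the mean in the control and Sora groups, where counting alone gives 1.32% and 0.936%.

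Eomes (chromosome 9), the T-box relative of Tbx21 that acts in memory and cytotoxic cells, was the other DEG, on far fewer reads. Its reads numbered 92, 80 and 67 in the control group and 125, 159 and 160 under Sora. Scaled, these were 2.34, 2.20 and 2.10 CPM against 4.12, 4.99 and 4.49 CPM, with no overlap between the groups. Eomes rose by 1.03 ± 0.17 on the log2 scale (SE, adjusted p = 2.02e-05 by edgeR). The increase passed the test under all 18 alternatives, but its size lies at the 2-fold limit, and without control replicate 3 or sorafenib replicate 2 it was 0.997 or 0.962, below that limit. Natural killer cells and CD8 T cells also express Eomes and Runx3. The natural killer cell markers stayed at or under 0.271 CPM. The CD8 markers Cd8a and Cd8b1 together were at 13.7 to 15.7 CPM in the control group and at 12.1 to 13.3 CPM under Sora. Cd8a was lower (-0.71, adjusted p = 0.00872 by edgeR), and Cd8b1 did not pass (0.04, edgeR adjusted p = 0.749). The part of such cells in the Eomes and Runx3 values was not tested.

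Zbtb7b (chromosome 3), the CD4 lineage factor, was measured at 119, 121 and 112 CPM in the control group and at 135, 133 and 138 CPM under Sora. The lowest Sora-Treg library lay above the highest ctrl-Treg library. Zbtb7b rose by 0.21 ± 0.04 on the log2 scale (SE, adjusted p = 3.86e-05 by edgeR). With libraries scaled by their totals, which moved the median of all genes to -0.12, it was 0.0904 (adjusted p = 0.0342). On log2(FPKM + 1) it was 0.0880 and did not pass (limma adjusted p = 0.0954).

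Rora (chromosome 9), a nuclear receptor of Th17 cells and innate lymphoid cells that is also found in tissue Treg cells, gave 78.2, 81.7 and 80.0 CPM in the control group and 98.8, 114 and 111 CPM under Sora. Sorafenib replicate 1 was the lowest of its group and still lay above all ctrl-Treg libraries. Rora rose by 0.43 ± 0.05 on the log2 scale (SE, adjusted p = 2.30e-08 by edgeR), with values of 0.40 to 0.50 after leaving out 1 library at a time. The innate lymphoid cell markers Il7r, Kit, Il1rl1 and Klrg1, some of which activated T cells and Treg cells also express, summed to at most 143 CPM in the control group and at least 314 CPM under Sora. Of the 4, 3 passed the test as higher, where 29.7% of all tested genes did. Il7r (59.5 and 146 CPM) and Kit (72.4 and 184 CPM) made up most of the sum. Klrg1 (0.607 and 1.26 CPM) overlapped between the groups, and Il1rl1 (3.11 and 2.99 CPM) did not pass. Their part in the result was not tested.

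Tox (chromosome 4) showed the largest decrease of the 9 factors. Control values were 16.2, 15.03 and 16.9 CPM, and Sora values were 8.37, 8.56 and 9.21 CPM. The highest Sora-Treg value was well below the lowest ctrl-Treg value. Tox changed by -0.88 ± 0.09 on the log2 scale (SE, adjusted p = 1.22e-08 by edgeR), short of the 2-fold limit, and only 6.54% of tested genes had a lower value.

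Tox2 (chromosome 2), its relative, was lower too, with 125, 104 and 92 reads in the control group and 67, 56 and 59 under Sora. In CPM these were 3.17, 2.86 and 2.88 against 2.21, 1.76 and 1.66. The groups did not overlap, and sorafenib replicate 1 was nearest to the ctrl-Treg libraries. Tox2 changed by -0.67 ± 0.21 on the log2 scale (SE, adjusted p = 0.00859 by edgeR). The spread of the Sora-Treg libraries was 15.7% of the mean, where counting alone gives 12.8%. Without control replicates 1 and 2, the libraries with the most myeloid RNA, the log2 fold change was -0.62 and did not pass (adjusted p = 0.126), on a single ctrl-Treg library that was assumed to vary like the others. Tox was -0.95 and passed in the same fit (adjusted p = 4.75e-06).

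Tbx21 (chromosome 11), the Th1 factor, had 101, 76 and 79 reads in the control group and 51, 57 and 54 under Sora. In CPM these were 2.57, 2.09 and 2.47 against 1.68, 1.79 and 1.52. The values were lower in every Sora-Treg library, but the test was not passed, the log2 difference being -0.52 ± 0.23 (SE, adjusted p = 0.0586 by edgeR). The call depended on the setting, since the adjusted p was 0.0436 with upper quartile scaling, 0.0215 under scaling by library totals and 0.0968 in DESeq2.

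Bcl6 (chromosome 16), the follicular helper factor, was at 7.72, 9.23 and 8.58 CPM in the control group and at 7.38, 6.74 and 7.70 CPM under Sora. Control replicate 1 and sorafenib replicate 3 nearly met. The log2 difference of -0.22 ± 0.11 (SE) did not pass (adjusted p = 0.0872 by edgeR). It passed with upper quartile scaling (-0.26, adjusted p = 0.0469) and with libraries scaled by their totals (-0.34, adjusted p = 0.0105). B cells of germinal centres also express Bcl6, and the B cell markers were lower under Sora, at 5.84 to 7.39 against 10.1 to 11.1 CPM in sum. Their part in the Bcl6 values was not tested.

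Gata3 (chromosome 2), the Th2 factor that Treg cells also require, ranged over 74.9, 72.9 and 72.4 CPM in the control group and 73.9, 67.5 and 72.1 CPM under Sora. The groups overlapped, and only sorafenib replicate 2 stood below the rest. Its log2 difference was -0.04 ± 0.04 (SE, adjusted p = 0.375 by edgeR). With libraries scaled by their totals, which lowers all genes alike, it was -0.16 (adjusted p = 0.00223).

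**Figure D2:**
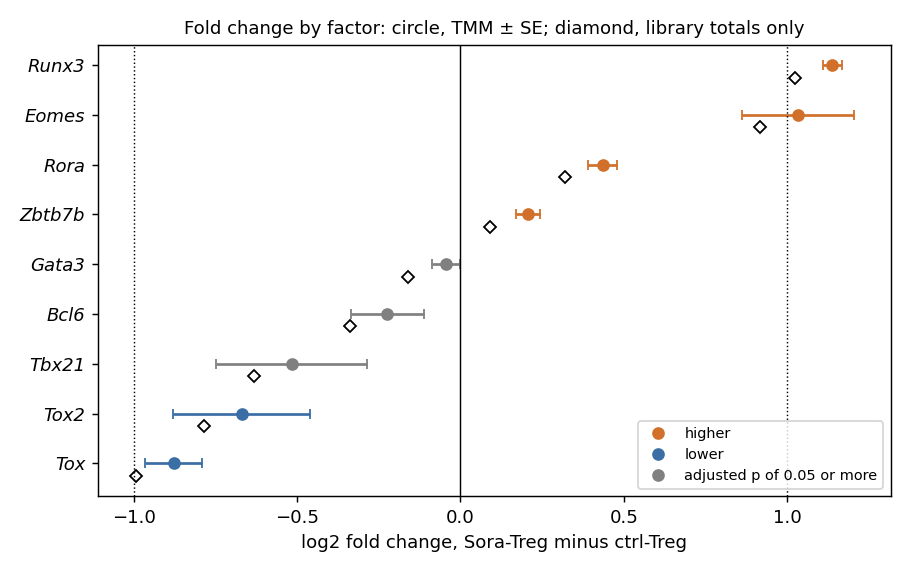
Log2 fold change (x axis, Sora-Treg minus ctrl-Treg) of the 9 factors, as circles with the SE of the edgeR fit and, as open diamonds, with libraries scaled by their totals only. Dotted lines mark the 2-fold limit, which Runx3 passes under both scalings, while Eomes passes it under TMM scaling (1.03) and not under library totals (0.918).

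Levels of different genes can be compared per length, and the deposited FPKM values were used for this. In ctrl-Treg cells the order was Runx3 (37.7 ± 0.770 FPKM, SD, n = 3), Zbtb7b (24.4 ± 0.972), Gata3 (19.6 ± 0.407), Tox (3.66 ± 0.222), Bcl6 (1.76 ± 0.151), Rora (1.61 ± 0.0303), Tbx21 (0.969 ± 0.106), Tox2 (0.669 ± 0.0419) and Eomes (0.619 ± 0.0351 FPKM). Bcl6 and Rora overlapped in range, as did Tox2 and Eomes. In Sora-Treg cells the same 3 factors led, with Runx3 at 76.6 ± 1.85, Zbtb7b at 26.0 ± 0.533 and Gata3 at 17.6 ± 0.847 FPKM. Rora (2.003 ± 0.148 FPKM) and Tox (1.84 ± 0.0917 FPKM) overlapped in range, as did Bcl6 (1.39 ± 0.0934 FPKM) and Eomes (1.17 ± 0.111 FPKM). Tbx21 (0.625 ± 0.0512 FPKM) and Tox2 (0.389 ± 0.0616 FPKM) were last and separate. Eomes thus went from the lowest FPKM of the 9 to a level above Tbx21 and Tox2.

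Of all tested genes, 87.9% had a lower FPKM than Runx3 in the control group and 94.99% under Sora. The place of Rora rests on its gene length. The deposited FPKM of Rora implies a length of 51763 bases, longer than that of 99.9% of genes, while the other 8 factors imply 2552 to 5043 bases. With the union of exons in GENCODE M21, 13071 bases for Rora, its level per length was 6.36 ± 0.120 in the control group and 7.93 ± 0.586 under Sora (SD, n = 3, scaled as FPKM), the fourth of the 9 in both groups. Fold changes within a gene do not depend on this length.

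**Figure D3:**
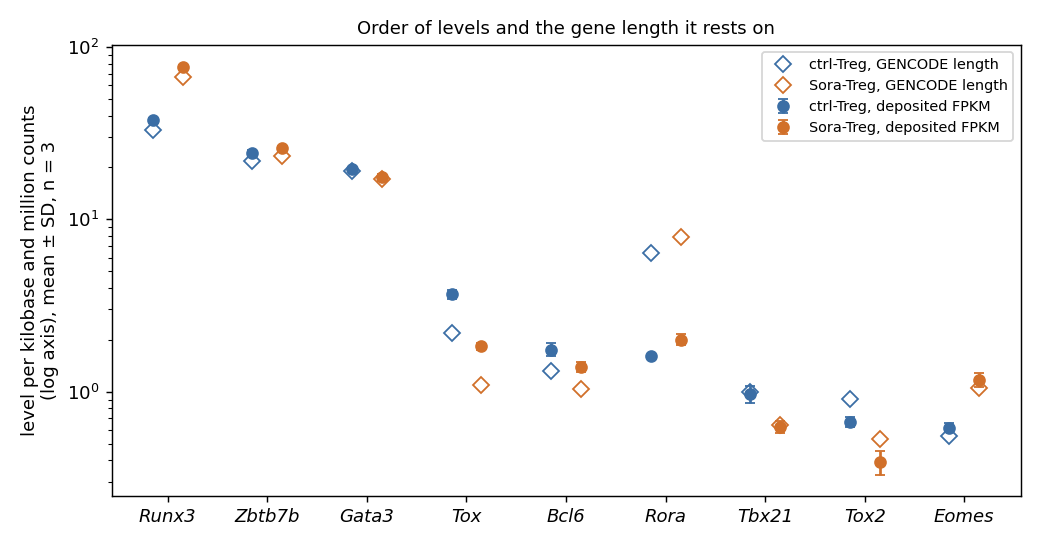
Level per length on the FPKM scale (log y axis, mean ± SD, n = 3) of the 9 factors in ctrl-Treg (blue) and Sora-Treg (orange) cells, with the deposited FPKM as filled circles and the level at the GENCODE exon length as open diamonds without error bars. Runx3, Zbtb7b and Gata3 lead under both lengths, and the Rora level in ctrl-Treg cells is 1.61 with the deposited length and 6.36 with the exon length.

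To compare factors that act against or beside each other without any scaling between libraries, the log2 ratio of their counts was formed within each library. For 5 pairs the difference between groups was tested with a two-sided exact permutation test, whose smallest p for 3 against 3 libraries is 0.1. No pair can pass 0.05 in this design. The log2 ratio of Runx3 to Zbtb7b was 0.44, 0.36 and 0.51 in ctrl-Treg and 1.40, 1.37 and 1.33 in Sora-Treg libraries. The groups did not overlap, and the ratio was 1.91-fold higher in Sora-Treg cells (difference 0.93 on the log2 scale, exact permutation p = 0.1, 0.125 adjusted over the 5 pairs).

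The mean log2 ratio of the T-box factors, Eomes to Tbx21, changed sign. Its log2 value was -0.13, 0.0735 and -0.24 in ctrl-Treg and 1.29, 1.47 and 1.56 in Sora-Treg libraries, a 2.90-fold difference (1.54 on the log2 scale, exact permutation p = 0.1, adjusted 0.125). The counts of both genes were near each other in ctrl-Treg cells, and Eomes was ahead in all 3 Sora-Treg libraries. The log2 ratio of Tbx21 to Gata3 went from -4.95 ± 0.15 to -5.41 ± 0.17 (SD, n = 3, exact permutation p = 0.1, adjusted 0.125), with no overlap between the groups.

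Prdm1 (Blimp-1) and Bcl6 repress each other in helper T cells, and Prdm1 marks effector Treg cells. Prdm1 averaged 6.11 ± 0.829 CPM without and 16.1 ± 0.774 CPM with Sora (SD, n = 3), and rose by 1.39 ± 0.10 on the log2 scale (SE, adjusted p = 5.95e-11 by edgeR). The log2 ratio of Bcl6 to Prdm1 was 0.29, 0.44 and 0.72 in ctrl-Treg and -1.07, -1.22 and -1.14 in Sora-Treg libraries. Bcl6 had more counts than Prdm1 in every ctrl-Treg library and fewer in every Sora-Treg library (difference -1.63, exact permutation p = 0.1, adjusted 0.125). The log2 ratio of Tox2 to Tox overlapped between the groups, at -2.43 ± 0.10 and -2.22 ± 0.28 (SD, n = 3, exact permutation p = 0.4).

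**Figure D4:**
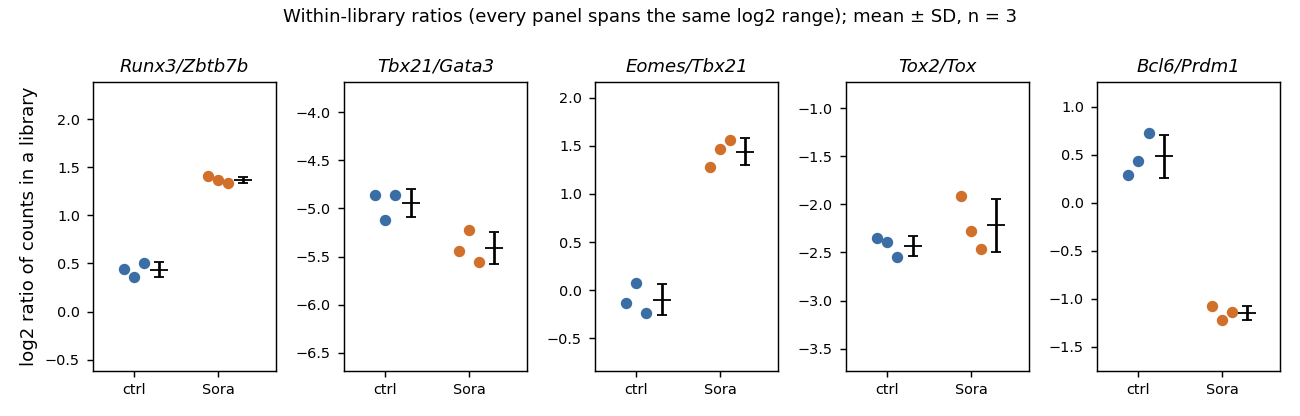
Log2 ratio of the counts of 2 factors within a library (y axis, each panel spanning the same range) for 5 pairs in ctrl-Treg (blue) and Sora-Treg (orange) libraries, with the mean ± SD in black. The groups stand apart in every pair but Tox2/Tox, and the sign of the mean changes for Eomes/Tbx21 (-0.0988 to 1.44) and Bcl6/Prdm1 (0.48 to -1.14).

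Close relatives of the 9 factors were read beside them. Of 12 listed, 8 were tested, and 5 were higher and 2 lower, with a median log2 fold change of 0.19. Calls made up 87.5% of the tested relatives, where 59.6% of all tested genes were called, 29.7% higher and 29.9% lower. The other RUNX genes rose by smaller amounts than Runx3, with Runx1 at 0.25 ± 0.04 and Runx2 at 0.60 ± 0.06 in log2 terms (SE, edgeR adjusted p = 1.50e-05 and 1.78e-08). Tox4 rose by 0.22 ± 0.04 (SE, edgeR adjusted p = 2.10e-05), in the opposite direction to Tox and Tox2. The differences between relatives were not themselves tested.

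Of 25 other T cell lineage factors, 24 were tested, and 17 were higher and 5 lower, a share of 91.7% against 59.6% of all tested genes. Their median log2 fold change was 0.36. The clearest were Satb1 (1.23 ± 0.03), a chromatin organizer of T cells, and Nfil3 (1.74 ± 0.04), which rose, Stat3 (0.78 ± 0.02), which rose, and Tcf7 (-1.24 ± 0.03, all SE), which fell. Tcf7 encodes TCF1, a factor of naive, memory and follicular helper T cells. The edgeR adjusted p of these 4 ranged from 1.03e-20 to 8.60e-18.

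The genes of the programs these factors are known for were then counted, and several lists share genes. These counts are to be read against the 59.6% of all tested genes that were called, 29.7% higher and 29.9% lower. Among 18 genes of the cytotoxic and CD8 program, a list that does not hold Runx3 or Eomes, 17 were tested, and 9 were higher and 4 lower, with a median log2 fold change of 0.88. Il2rb, a target of Eomes and T-bet, rose by 0.88 ± 0.02 and Ctsw, a protease of cytotoxic cells, by 1.27 ± 0.04 (SE, edgeR adjusted p = 4.57e-19 and 3.81e-18). Gzmb and Gzma encode granzymes and rose by 5.14 ± 0.04 and 8.63 ± 0.12 (SE, edgeR adjusted p = 3.54e-28 and 4.25e-24). The control level of Gzma rests on 16 reads over the group. Gzma and Prf1 of this list were singled out by the study in this experiment, so their direction is not independent evidence. The 4 genes that fell, named after their values were seen, were Nkg7 (-2.30), Ccl5 (-2.63), Cd8a (-0.71) and Xcl1 (-0.63), with edgeR adjusted p from 1.54e-15 to 0.00872. The fit without control replicates 1 and 2 rests on a single ctrl-Treg library, so its count for this list is not compared.

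Of 14 genes of the Th1 program, 13 were tested, and 5 were higher and 7 lower, with a median of -0.07. The receptor genes Il12rb2 and Il12rb1 rose (2.24 ± 0.05 and 0.78 ± 0.03), while the chemokine Ccl4 fell (-2.65 ± 0.08, all SE, edgeR adjusted p from 6.28e-21 to 5.33e-15). Ccl4 has the close relative Ccl3, named for that reason, which also fell (-2.32 ± 0.11, SE, edgeR adjusted p = 1.13e-14). Whether reads were split between them was not tested. Ifng, the cytokine of the program and chosen after its value was seen, was at 1.54 ± 0.166 CPM without and 1.61 ± 0.431 CPM with Sora (SD, n = 3, edgeR adjusted p = 0.85).

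Of 14 genes of the Th2 program, 13 were tested, and 5 were higher and 5 lower, with a median of -0.05. Il24 (4.30 ± 0.05), Il4ra (1.07 ± 0.03), the chemokine receptor Ccr4 (0.97 ± 0.03) and Maf (1.87 ± 0.06, all SE) rose, with edgeR adjusted p from 1.41e-25 to 6.44e-17. The 5 genes that fell, named after their values were seen, were the type 2 cytokines Il5 (-3.81) and Il13 (-1.11), Il9 (-1.52), Areg (-1.79) and the chemokine receptor Ccr8 (-0.46), with edgeR adjusted p from 7.16e-13 to 0.0245. Il13 and Areg had 111 and 122 reads over the control group and 47 and 32 under Sora. Gata3 itself did not pass the test in the same libraries. Of 13 genes of the Th17 program, 12 were tested, and 5 were higher and 5 lower, with a median of 0.0950. The cytokine Il21 rose (2.31 ± 0.09) and the Th17 chemokine receptor Ccr6 fell (-1.01 ± 0.04), as did the IL6 receptor chain Il6ra (-0.48 ± 0.05, all SE, edgeR adjusted p from 5.91e-16 to 3.97e-09). Scaling by library totals alone lowers the median of all genes to -0.12, which is more than these 3 medians lie from 0.

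All 14 genes of the follicular helper program were tested, and 4 were higher and 9 lower, with a median log2 fold change of -0.61. Calls made up 92.9% of this list, where over all tested genes 59.6% were called and 29.9% were called lower. Slamf6, a receptor of follicular and memory T cells, and Tcf7 fell (-1.94 ± 0.06 and -1.24 ± 0.03), while the costimulator Icos and the cytokine Il21 rose by 1.61 ± 0.03 and 2.31 ± 0.09 (SE, edgeR adjusted p from 7.62e-22 to 5.91e-16). All 9 genes that Bcl6 is known to repress were tested, and 8 were higher and 1 lower, with a median of 0.70, where 59.6% of all tested genes were called and 29.7% were higher. Examples were Id2 (1.19 ± 0.04), Il7r (1.30 ± 0.05), Selplg (0.71 ± 0.03) and Ccr7 (0.70 ± 0.02, all SE, edgeR adjusted p from 3.07e-17 to 2.01e-16). The gene that fell was Klf2, named as the single exception (-0.53 ± 0.05, SE, edgeR adjusted p = 1.03e-09). Bcl6 itself did not pass the test in the same libraries (-0.22, edgeR adjusted p = 0.0872). Cxcr5, named as the follicular gene that did not pass, averaged 5.57 CPM without and 6.01 CPM with Sora (edgeR adjusted p = 0.532).

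Of 14 genes of the inhibitory receptor program linked to Tox, 13 were tested, and 5 were higher and 6 lower, with a median of -0.05. Ctla4 rose by 1.53 ± 0.03 (SE), while the receptor Btla (-1.11) and the nuclear receptors Nr4a1 (-1.31) and Nr4a3 (-1.68) fell (edgeR adjusted p from 7.94e-22 to 2.61e-14). Nr4a genes are known to act with Tox in chronically stimulated T cells. The remaining genes of the list, named after their values were seen, went both ways. Lag3 (0.75), Tigit (0.46), Entpd1 (1.55) and Cd38 (1.80) rose (edgeR adjusted p from 7.23e-13 to 5.66e-05), and Pdcd1 (-0.75), Cd160 (-0.83) and Nr4a2 (-0.49) fell (edgeR adjusted p from 9.99e-09 to 0.0457). Havcr2 (0.08) and Cd200r1 (-0.05) did not pass (edgeR adjusted p = 0.797 and 0.803).

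**Figure D5:**
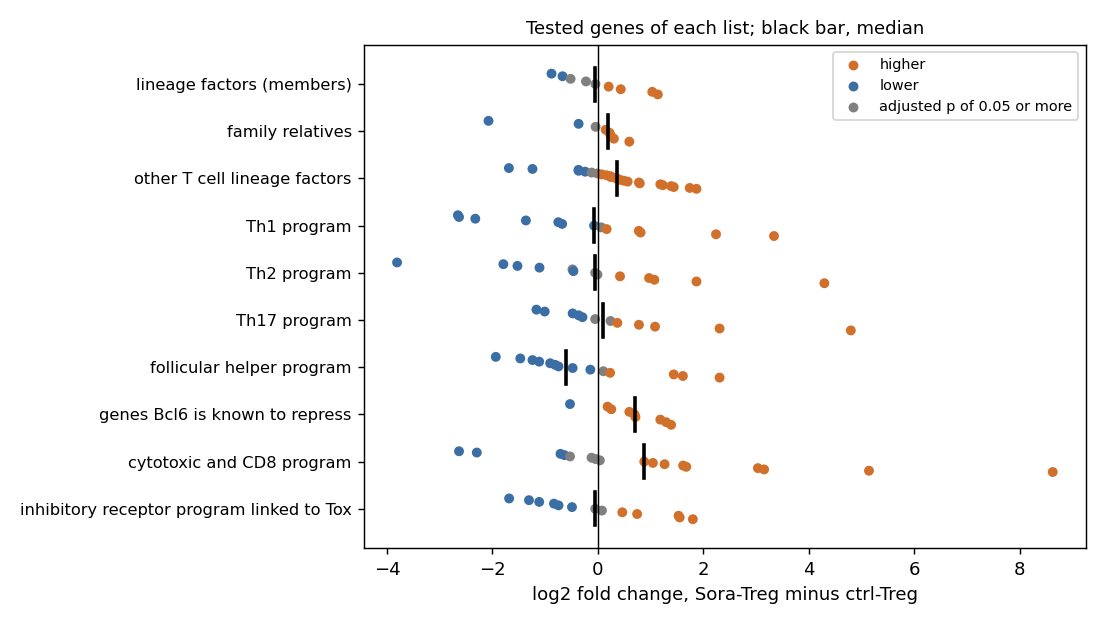
Log2 fold change (x axis, Sora-Treg minus ctrl-Treg) of every tested gene in each list, coloured by call, with the list's median as a black bar. The follicular helper genes lie mostly below 0 (median -0.61), the genes Bcl6 is known to repress mostly above (median 0.70), and the Th1, Th2 and Th17 genes on both sides. Bcl6 itself did not pass the test (-0.22).

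The genes most alike in pattern were sought for the 3 factors with the largest change, as the smallest Euclidean distance between centred log2 CPM values over the 6 libraries, among 10854 genes. Nearest to Runx3 were Anxa2, Gm2a and Pde4d, at distances of 0.0398, 0.0609 and 0.0618 and log2 fold changes of 1.15, 1.14 and 1.15. Nearest to Eomes were Slc25a24, Abhd17b and Chm, at 0.129, 0.131 and 0.140. Nearest to Tox were Clspn, a replication checkpoint gene, Cd40lg, the ligand by which helper T cells signal to B cells, and Bcl2l15, at 0.0685, 0.0752 and 0.0791. With 6 libraries in 2 groups, genes with a fold change of the same size come out alike by this measure.

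Genes that overlap the factors on the genome had few counts. The antisense gene Gm15417 at Zbtb7b had 50 to 81 counts per library, where Zbtb7b had 3586 to 4926. At Eomes, Gm33460 had 1 to 12 counts and Gm33408 0 to 7, where Eomes had 67 to 160. Overlapping genes in the table at Gata3, Rora and Tox had at most 17, 4 and 3 counts. Whether strand was used in counting was not stated, so reads of such partners cannot be told apart.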

How the data were processed

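RNA-seq libraries of sorted GFP-positive Treg cells, 3 control and 3 sorafenib, were grouped and numbered by their titles. Raw counts and FPKM values by gene symbol were deposited. The submitters' processing notes name fastp, HISAT2, HTSeq and GRCm39, whereas the study's methods name Bowtie2 and GRCm38. The table holds 524 symbols beginning with LOC1185 that are absent from RefSeq on GRCm38.p6, so no gene coordinates are given except those of the RefSeq promoters. Strand setting and annotation release are not given in the sources used here. Each deposited FPKM equalled the count divided by 1 length per gene and the library total (largest relative difference 1.64e-06).

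Counts were tested in R 4.3.3 with edgeR 4.0.16, by its quasi-likelihood test (TMM scaling, filterByExpr, no covariate, Benjamini-Hochberg adjustment over all tested genes). DEGs had an adjusted p under 0.05 and a change over 2-fold. CPM values are TMM-scaled, except summed markers and the floor, which use library totals. Ratios used a pseudocount of 0.5. Alternatives used DESeq2 1.42.0, limma 3.58.1 on log2(FPKM + 1) or log2(FPKM + 0.1) with a mean FPKM of at least 0.5 or none, other scalings and filters, a replicate block and each library left out. The tests were also run on simulated data with 200 changed genes, far fewer than were called here. That run cannot show how scaling behaves when most genes are called.

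The factors and lists were chosen with earlier results of these data known, and the lists were written from general knowledge. From each list at most 4 genes were named, those with the smallest adjusted p at a mean log2 CPM of at least 1, with Prdm1 added for its ratio to Bcl6. Some genes that this rule names are not reported here. Further genes were picked with their values in view, or overlap a factor. No 2 libraries of a group matched within counting noise (chi-square over its degrees of freedom, 3.48 to 6.23).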

Additional observations from a re-analysis of the deposited data

How the results depend on the processing

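Each factor had 18 alternatives, and all 9 kept their direction in each of them. Runx3, Eomes, Rora and Tox also kept their call. The calls that changed were those of small or low factors. With libraries scaled by their totals, which by construction lowers all genes alike, Tbx21 (-0.63), Gata3 (-0.16) and Bcl6 (-0.34) passed, and 5 factors were lower. Upper quartile scaling passed Tbx21 (-0.55) and Bcl6 (-0.26), so that 4 were lower, and a CPM of at least 1 in 3 samples passed Tbx21 (-0.51). Limma on log2(FPKM + 1), with or without the filter, passed Tbx21 (-0.28), Gata3 (-0.15) and Bcl6 (-0.21) but not Zbtb7b (0.0880), and log2(FPKM + 0.1) gave -0.56, -0.16, -0.32 and 0.0911 in that order. The number lower was 5 in each. Under upper quartile scaling, library totals and the 3 FPKM fits, 1 factor in place of 2 was a DEG.

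With a library left out, the number of DEGs among the factors ranged from 1 to 2, and the numbers higher and lower stayed at 4 and 2. Without control replicates 1 and 2 together, an alternative chosen after seeing the data, Tox2 was -0.62. That fit rests on a single ctrl-Treg library, so its counts of genes passing are not compared. Among family relatives, the number higher was 3 on log2(FPKM + 1), 2 on log2(FPKM + 0.1) and 2 without the FPKM filter, against 5, and the number lower was 1 on log2(FPKM + 0.1) and 1 with a CPM of at least 1 in 3 samples, against 2. The cause of these changes was not tested. Outside the fit on a single ctrl-Treg library, all other list counts stayed within 1.5 times, and the 5 ratios kept their direction.

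Replicate numbers gave no evidence of pairing, with correlations of same-numbered deviations of -0.0438, 0.0591 and 0.0299. With the replicate block 4 factors were higher and 2 lower, Runx3 was 1.14, and no call among the factors changed. Over all genes, DEGs numbered 1517, against 461, 832 and 458 in the FPKM fits (log2(FPKM + 1), log2(FPKM + 0.1) and no filter), where 2413, 2346 and 2559 genes were higher and 4970, 4866 and 5031 lower. Depth limits Tbx21, Tox2 and Eomes, which had 51 to 160 counts per library.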
